A study of Mus musculus with 12 samples.

Results

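A set of 10 genes that switch off signalling through the ERK mitogen-activated protein kinases, or are read as its transcriptional output, was followed in mouse mesenchymal stem cells (MSCs): the dual-specificity phosphatases Dusp1, Dusp4, Dusp5 and Dusp6, the Sprouty genes Spry1, Spry2 and Spry4, the Spred genes Spred1 and Spred2, and the ETS-family factor Etv4. They were chosen by name, as 10 of the 55401 genes of the deposited table, and all 10 were found there. The cells were bone marrow MSCs of the C57BL/6 strain, bought from a supplier, and their polyadenylated RNA was sequenced in 4 groups of 3 libraries. Control MSCs received no treatment. The TGF-β1 group received TGF-β1, the cytokine that turns these cells towards myofibroblasts, at 5 ng/mL. The other groups received the same TGF-β1 together with culture supernatant (sup) of M-MDSCs or of G-MDSCs, the monocytic and granulocytic classes of myeloid-derived suppressor cells, which had been sorted from cultured bone marrow. No group received medium without MDSCs beside TGF-β1, so the supernatant and a change of medium cannot be told apart. No source states whether the 3 libraries of a group came from separate cultures, so p-values measure the spread between these libraries, which may be technical.

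ERK is the last kinase of a relay in which a growth factor receptor activates Ras, Ras activates Raf, Raf activates MEK and MEK phosphorylates ERK. The relay limits itself. Dual-specificity phosphatases remove the activating phosphates from ERK and, for some members, from p38 and JNK. Sprouty proteins interfere with the relay between receptor and Raf, and Spred proteins bring the Ras inactivator neurofibromin to the membrane. Many of these genes are themselves induced when ERK is active, and Dusp6, Spry4 and Etv4 are widely read as transcripts that follow ERK activity. The study asked whether M-MDSC sup acts on MSCs through Ras and Erk1/2, and the comparisons below give the transcripts of the feedback genes in the same groups.

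The 12 libraries held 73977669 to 84565450 counts, and 19198 to 20448 genes had over 3 counts. Of 7 MSC marker transcripts, Ly6a, which encodes Sca-1, went from 241 to 251.1 FPKM in control libraries to 12.99 to 18.75 with TGF-β1, 82.56 to 102.8 with M-MDSC sup and 63.28 to 69.15 with G-MDSC sup, while Itgb1 went from 246.6 to 263.4 FPKM in control libraries to 380.7 to 387.7 with TGF-β1. Their sum ranged from 568 to 582.7 FPKM (fragment counts scaled by the length of the transcript and the size of the library) in control libraries, 495.7 to 508.2 with TGF-β1, 548.8 to 579.8 with M-MDSC sup and 527.4 to 551.8 with G-MDSC sup. With TGF-β1, Cd44, Nt5e and Pdgfrb were also higher than in control libraries, Thy1 was lower and Eng overlapped. Pdgfrb stood at 31.96 to 32.88 FPKM in control libraries and 43.58 to 46.18 with TGF-β1. It was lower again with M-MDSC sup (36.54 to 40.58) and G-MDSC sup (33.21 to 35.04), whereas Nt5e was higher with either supernatant than with TGF-β1. Of 4 markers that MSCs are taken to lack, the study examined the products of Kit and Pecam1. Kit and Ptprc had at most 26 counts in any library and Pecam1 had 40 to 120, while Cd34 stood at 60.15 to 66.01 FPKM in control libraries and 10.88 to 17.45 FPKM in the others. The myeloid list of 12 genes summed to 6.26 to 7.21 FPKM in control libraries, 2.30 to 3.18 with TGF-β1, 4.32 to 6.79 with M-MDSC sup and 5.62 to 9.0 with G-MDSC sup. Its members did not move alike. Mpo and Elane were at 0 counts in all 12 libraries, Lyz2 had 0 to 12 counts with TGF-β1, 71 to 262 with M-MDSC sup and 185 to 262 with G-MDSC sup, S100a9 had 0, 12 to 43 and 0 to 160 counts in those groups, and Itgam 0 to 1, 0 to 41 and 14 to 42. Csf1r, at 525 to 552, 454 to 600 and 501 to 687 counts, and Ly6g, at 4 to 8, 0 to 13 and 0 to 18, overlapped between those groups. Against control libraries, TGF-β1 libraries were lower in Ly6g (152 to 161 counts in control) and Ly6c2 (393 to 439 against 0 to 21) and higher in Csf1r (272 to 421 in control). A list of 8 kidney genes summed to 1.24 to 5.55 FPKM in control libraries and 1.20 to 5.43 with TGF-β1, against 12.4 to 82.7 with M-MDSC sup and 47.9 to 61.8 with G-MDSC sup. Its member Kap was at 0 counts in every control and TGF-β1 library and at 537 to 4246 counts in the supernatant libraries, and it made up most of the sum there. Umod and Slc34a1 were likewise at 0 counts without supernatant and at 151 to 1020 counts with it, whereas Nphs1 overlapped in all groups and Cubn stood at 0.315 to 0.428 FPKM with M-MDSC sup against 0.448 to 0.462 with TGF-β1. Across groups the MSC sum thus went the way of Ly6a but not of Pdgfrb. The MSC and myeloid sums were lower with TGF-β1 than in control libraries, without overlap. Both sums were higher with either supernatant than with TGF-β1, again without overlap, and the kidney sum was higher with either supernatant. The part of these lists in the results was not tested.

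In control MSCs, 9 of the 10 genes were readily measured. Mean levels over 3 libraries were 29.4 FPKM for Spry2, 27.0 for Dusp1, 25.1 for Dusp5, 22.7 for Dusp4, 20 for Dusp6, 19.4 for Etv4, 17.4 for Spred2, 13.5 for Spred1, 2.62 for Spry4 and 0.250 for Spry1. Neighbours in this order whose libraries overlapped were Dusp1 with Dusp5, Dusp5 with Dusp4, and Dusp6 with Etv4. With TGF-β1 the order changed: Dusp5 led at 48.5 FPKM, ahead of Dusp4 at 27.9, Dusp6 at 25.0, Spry2 at 24.9, Etv4 at 23.7, Spred2 at 21.5, Dusp1 at 16.4, Spred1 at 13.2, Spry4 at 1.88 and Spry1 at 0.510. There Dusp6 overlapped Spry2, and Spry2 overlapped Etv4. Spry1 did not reach the minimum for testing, which was an FPKM of 1 or more in 3 or more libraries, and its tests come from a second fit that kept low genes.

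**Figure D1:**
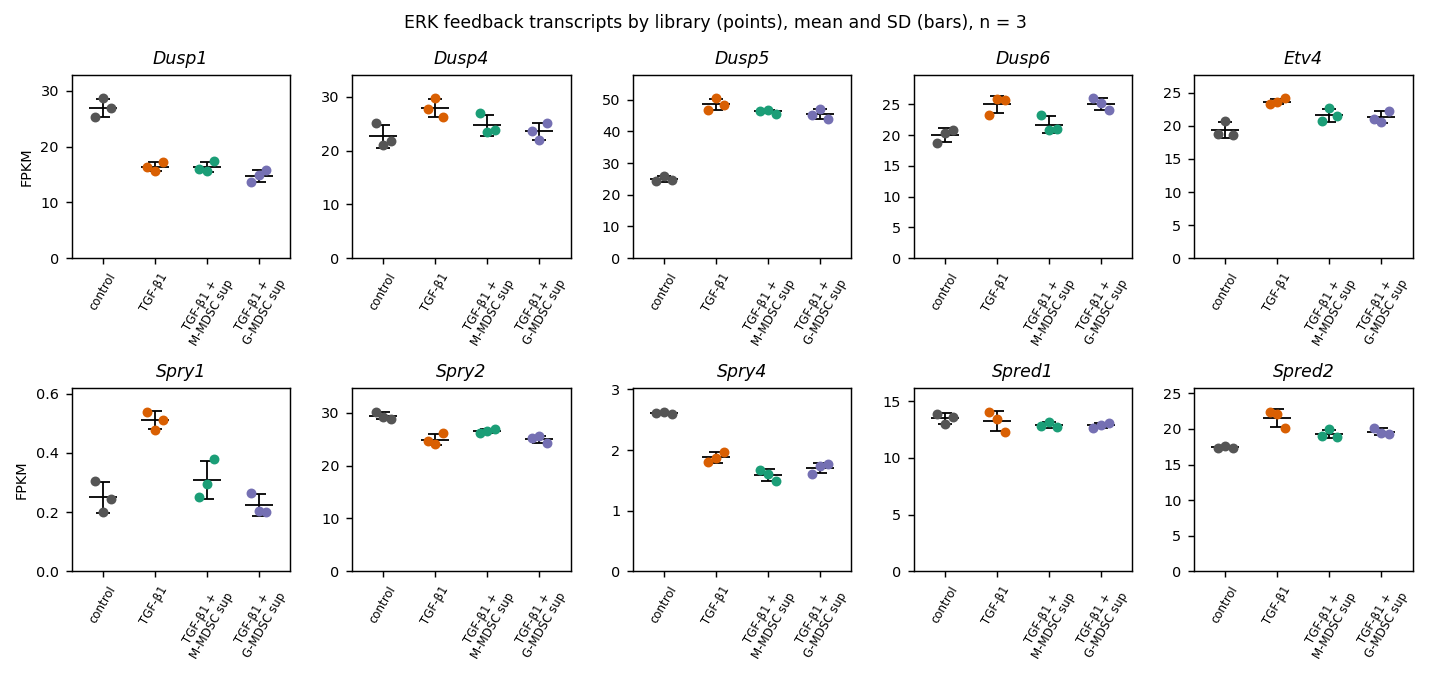
FPKM of the 10 ERK feedback genes on a linear axis that starts at 0, with 1 point per library, the group mean as a wide bar and the SD as error bars (n = 3). The 3 TGF-β1 libraries of Dusp5 sit at 46.9 to 50.4 FPKM above control libraries at 24.4 to 26.0, those of Dusp1 sit at 15.7 to 17.2 below control libraries at 25.4 to 28.7, and Spred1 stays between 12.3 and 14.1 in all 12 libraries.

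TGF-β1 alone changed most of these genes, but in both directions. Of the 9 tested genes, 8 were called at an adjusted p under 0.05, beside 34% of all 12016 genes tested. Dusp4, Dusp5, Dusp6, Spred2 and Etv4 were higher than in control MSCs, where 16.1% of all genes were called higher. Dusp1, Spry2 and Spry4 were lower, where 17.9% of all genes were called lower. Log2 fold changes ran from -0.66 for Dusp1 to 1.01 for Dusp5, with a median of 0.35 over the 9 genes beside 0.00048 over all genes. The 3 TGF-β1 libraries did not overlap the 3 control libraries in FPKM for 8 of the 9 genes, beside 46.7% of all genes. In a bulk sample, fewer cells with a transcript and less transcript per cell cannot be told apart.

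Among the 4 phosphatases, Dusp5 rose the most. It encodes a nuclear phosphatase that acts on ERK, and lies at chr19:53529109-53542431 on the plus strand (ENSMUSG00000034765, GRCm38, as all gene positions here). Dusp5 was at 24.4, 26.0 and 24.7 FPKM in the 3 control libraries and at 46.9, 50.4 and 48.3 FPKM with TGF-β1. All TGF-β1 libraries lay far above all control libraries, and the log2 fold change was 1.01 (SE 0.044, adjusted p = 3.51e-08 by edgeR's quasi-likelihood test). This 2.02-fold difference was the only one among the 9 genes to pass the study's own rule of a fold above 2 or below 0.5 with an unadjusted p under 0.05, which 6.74% of all genes passed. Dusp5 overlaps an antisense gene, Gm50394, that had 4 to 40 counts per library.

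Dusp1 moved the other way. It encodes a nuclear phosphatase for p38, JNK and ERK and is an early response gene in many cells (ENSMUSG00000024190, chr17:26505590-26562128, minus strand). Its control libraries were at 25.4, 28.7 and 27.0 FPKM and its TGF-β1 libraries at 16.4, 15.7 and 17.2 FPKM. The groups did not overlap, and the log2 fold change was -0.66 (SE 0.068, adjusted p = 2.39e-05). The annotated span of Dusp1 overlaps Ergic1 on the opposite strand, a gene with 13477 to 38198 counts, and 3 less abundant genes, and whether counting used the strand is not stated.

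Dusp6 and Dusp4 rose by smaller amounts. Dusp6, a cytoplasmic phosphatase that is specific to ERK (ENSMUSG00000019960, chr10:99263231-99267489, plus strand), was at 18.8, 20.4 and 20.9 FPKM in control libraries. With TGF-β1 it was at 23.4, 25.9 and 25.8 FPKM, above every control library, a log2 fold change of 0.38 (SE 0.064, adjusted p = 0.00089). Dusp4, a nuclear phosphatase of ERK and JNK (ENSMUSG00000031530, chr8:34807297-34819894, plus strand), went from 25.1, 21.1 and 21.7 FPKM to 27.8, 29.7 and 26.2 FPKM. The lowest TGF-β1 library exceeded the highest control library by little, and the log2 fold change was 0.36 (SE 0.085, adjusted p = 0.0076).

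Because Dusp1 and Dusp5 moved furthest among the tested genes and in opposite directions, the bases upstream of their starts are shown, from RefSeq windows of GRCm38.p6, 5′ to 3′ on the strand of each gene. RefSeq promoter windows were found for 7 of the 10 genes, and none was matched for Dusp4, Spry4 and Etv4. Positions count back from the RefSeq start of the gene, and bases next to the start that the annotation gives as transcribed are not shown. Capitals mark motif matches on either strand: the cAMP response element core (CRE, TGACGT), the SMAD-binding sequence (CAGACA) and the CArG box, the sequence that serum response factor binds.
Dusp1, chr17:26508520-26508722, minus strand: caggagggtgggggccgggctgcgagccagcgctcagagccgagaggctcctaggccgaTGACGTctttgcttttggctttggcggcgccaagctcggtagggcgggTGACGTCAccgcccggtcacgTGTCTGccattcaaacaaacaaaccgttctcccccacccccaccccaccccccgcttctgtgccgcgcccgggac
Dusp5, chr19:53528895-53529108, plus strand: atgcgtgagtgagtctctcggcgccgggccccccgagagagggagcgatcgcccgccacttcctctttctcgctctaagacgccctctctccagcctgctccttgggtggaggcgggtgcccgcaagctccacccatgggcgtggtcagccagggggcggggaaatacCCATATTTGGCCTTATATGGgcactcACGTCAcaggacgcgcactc

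In the Dusp1 window the CRE core matched at -191, and again at -143 and -141, where the pair overlaps as both strands of a single palindrome, and the SMAD sequence matched at -122. In the Dusp5 window, 2 CArG boxes stood side by side at -82 and -72, and a CRE core followed at -56. Spred2 had a CRE core at -52, and the windows of Dusp6, Spry1, Spry2 and Spred1 held none of these motifs, nor did any of the 7 windows hold the ETS core CCGGAA or the AP-1 sequence TGANTCA. Among 32851 windows of the same length, 6.47% held the CRE core, 17.1% the SMAD sequence, 1.47% a CArG box, 12% the ETS core and 6.75% the AP-1 sequence. The CArG box was added to the search after the windows had been read. A match describes letters in a window and does not show that a factor binds there.

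**Figure D2:**
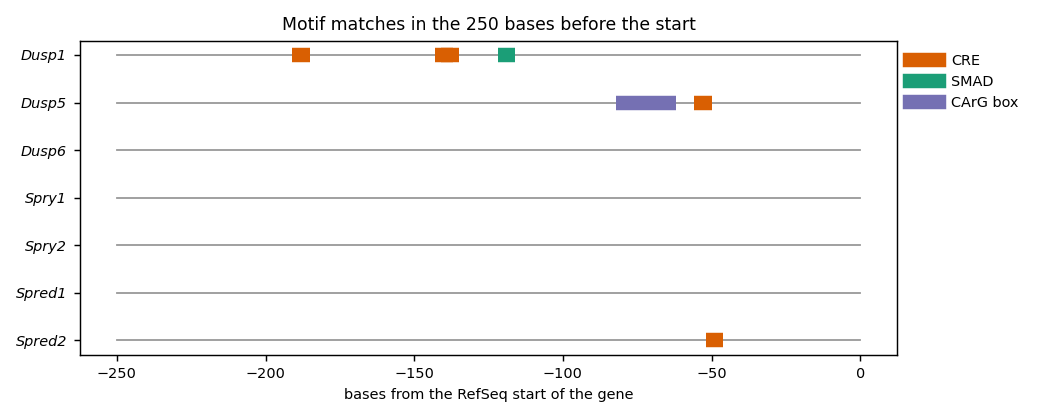
Positions of motif matches in the 250 bases before the RefSeq start of the 7 ERK feedback genes with a promoter window; the horizontal axis gives bases from the start and colours give the motif. Dusp1 has CRE cores at -191, -143 and -141 and a SMAD sequence at -122, Dusp5 has CArG boxes at -82 and -72 and a CRE core at -56, and Spred2 has a CRE core at -52.

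The Sprouty genes did not move together with TGF-β1. Spry4, whose product inhibits signalling below fibroblast growth factor and other receptors (ENSMUSG00000024427, chr18:38586247-38601415, minus strand), was at 2.62, 2.63 and 2.60 FPKM in control libraries and at 1.80, 1.86 and 1.97 FPKM with TGF-β1. The groups did not overlap, and the log2 fold change was -0.42 (SE 0.072, adjusted p = 0.000969). Spry2, the most abundant Sprouty transcript in these cells (ENSMUSG00000022114, chr14:105891947-105896819, minus strand), went from 30.2, 29.2 and 28.9 FPKM to 24.6, 24.1 and 26.1 FPKM. Every TGF-β1 library was below every control library, and the log2 fold change was -0.18 (SE 0.041, adjusted p = 0.00564).

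Spry1, the third Sprouty gene (ENSMUSG00000037211, chr3:37639947-37644598, plus strand), was low in all libraries and rose. It had 76, 54 and 64 counts in control libraries (0.305, 0.199 and 0.245 FPKM) and 141, 127 and 134 counts with TGF-β1 (0.539, 0.478 and 0.512 FPKM). The groups were apart, and in the fit that kept low genes the log2 fold change was 1.09 (95% interval 0.56 to 1.62, adjusted p = 0.00874). Low counts in the table pile up at multiples of 4. The adjusted p for Spry1 stayed between 0.000354 and 0.0392 with counts divided by 4, with DESeq2 and with each library left out in turn. At these levels Spry2 exceeded Spry1 by far in every library, per length of transcript.

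The Spred genes differed from each other. Spred2 (ENSMUSG00000045671, chr11:19924375-20024026, plus strand) was at 17.4, 17.6 and 17.3 FPKM in control libraries and at 22.4, 22.1 and 20.1 FPKM with TGF-β1. All TGF-β1 libraries were higher, and the log2 fold change was 0.37 (SE 0.048, adjusted p = 0.000148). Spred1 (ENSMUSG00000027351, chr2:117121374-117182279, plus strand) was at 13.9, 12.9 and 13.6 FPKM against 14.1, 13.4 and 12.3 FPKM. These libraries overlapped, the log2 fold change was 0.034 with a 95% interval of -0.079 to 0.15 (adjusted p = 0.666), and its sign turned under other settings.

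Etv4, a PEA3-group ETS factor that is a transcriptional target of receptor signalling through ERK (ENSMUSG00000017724, chr11:101769742-101785371, minus strand), rose with TGF-β1. It was at 18.8, 20.7 and 18.6 FPKM in control libraries and at 23.3, 23.7 and 24.2 FPKM with TGF-β1. The groups did not overlap, and the log2 fold change was 0.35 (SE 0.055, adjusted p = 0.000571). Of the transcripts most often read as ERK output, Dusp6 and Etv4 were therefore higher and Spry4 lower in the same libraries.

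**Figure D3:**
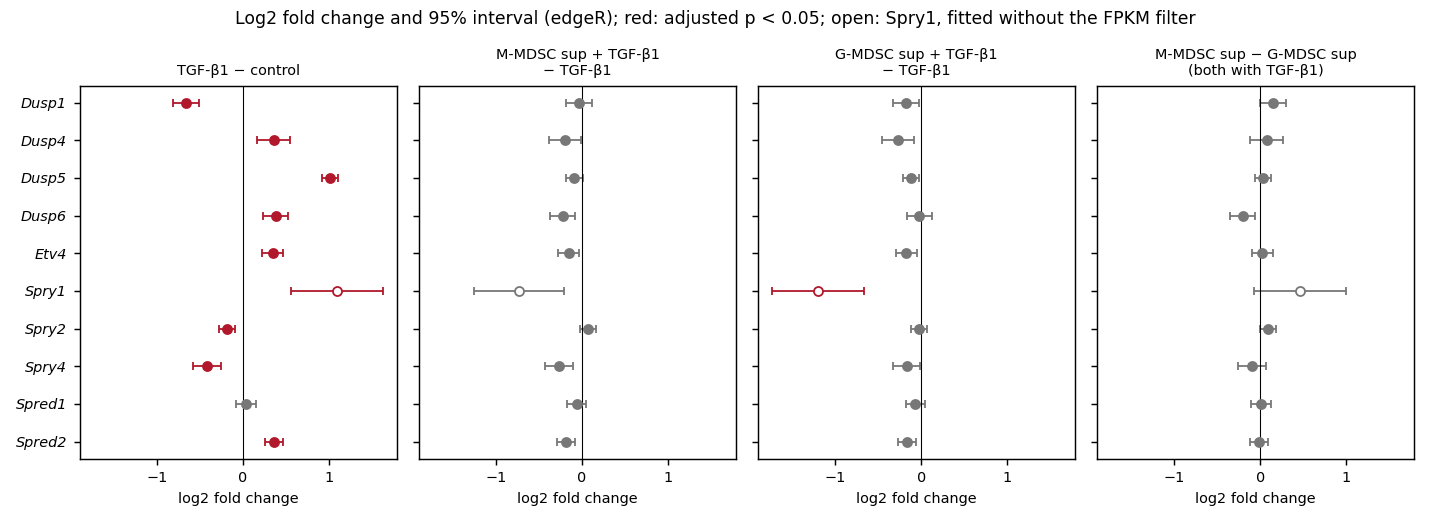
Log2 fold changes (points) and 95% intervals (bars) of the 10 genes in 4 comparisons, with red for an adjusted p under 0.05 and open symbols for Spry1, which was fitted without the FPKM minimum. TGF-β1 against control has 8 red filled points, from -0.66 for Dusp1 to 1.01 for Dusp5, and the other panels have no red filled point; Spry1 is red at 1.09 and, with G-MDSC sup, at -1.20.

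M-MDSC sup was a condition in which the study looked at Erk1/2 activation. By western blot it reported more Ras and more phosphorylated Erk1/2 when M-MDSC sup was added to TGF-β1, which a receptor antibody blocked. That is a measure of protein, and the transcripts here stand beside it and do not test it. No tested feedback gene passed with M-MDSC sup against TGF-β1 alone. edgeR called 0 of the 9 tested genes, beside 4.78% of all genes, DESeq2 called 1 of them, beside 6.94%, and limma called 0, beside 4.48 to 4.49%. At an unadjusted p under 0.05 there were 5 of 9, beside 16.7% of all genes. FPKM ranges were separate for 6 of 9, beside 24% of all genes. The median log2 fold change of the 9 genes was -0.16, beside -0.013 over all genes. The kidney list summed to 12.4 to 82.7 FPKM in the M-MDSC sup libraries and to at most 5.43 FPKM in those with TGF-β1 alone, and the myeloid list to 4.32 to 6.79 against 2.30 to 3.18 FPKM.

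Dusp6 was at 23.3, 20.8 and 21.1 FPKM with M-MDSC sup, and all 3 libraries were below the 3 TGF-β1 libraries, the closest pair being 23.3 and 23.4 FPKM. The log2 difference was -0.23 (95% interval -0.37 to -0.085), with an adjusted p of 0.0855, which became 0.0498 without M-MDSC sup replicate 1. Spry4 was at 1.67, 1.61 and 1.48 FPKM, again below every TGF-β1 library, with a log2 difference of -0.27 (-0.43 to -0.11) and an adjusted p of 0.0701 by edgeR's quasi-likelihood test. Spry4 thus stood lower with M-MDSC sup than in control MSCs by more than it did with TGF-β1 alone, but the step between the TGF-β1 groups did not pass.

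Spred2 came closest to the threshold. It was at 19.1, 19.9 and 18.8 FPKM with M-MDSC sup, between the control libraries at 17.3 to 17.6 and the TGF-β1 libraries at 20.1 to 22.4 FPKM. The log2 difference from TGF-β1 was -0.18 (-0.29 to -0.078), with an adjusted p of 0.0596 by edgeR, 0.0317 by DESeq2 and 0.0253 by edgeR without TGF-β1 replicate 3. Etv4 was at 20.8, 22.6 and 21.4 FPKM, all below the TGF-β1 libraries (-0.16, -0.28 to -0.033, adjusted p = 0.176). Dusp4 was at 27.0, 23.4 and 23.9 FPKM, overlapping the TGF-β1 libraries (-0.20, -0.39 to -0.0070, adjusted p = 0.281).

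The other tested genes had smaller differences. Dusp5 was at 46.6, 46.7 and 45.7 FPKM, close below the TGF-β1 libraries (-0.091, -0.19 to 0.0055, adjusted p = 0.331). Dusp1 was at 15.96, 15.7 and 17.3 FPKM, overlapping the TGF-β1 libraries (-0.032, -0.18 to 0.12, adjusted p = 0.876). Spry2 was at 26.2, 26.4 and 26.9 FPKM, just above the TGF-β1 libraries (0.068, -0.024 to 0.16, adjusted p = 0.455). Spred1 was at 12.8, 13.2 and 12.7 FPKM (-0.061, -0.17 to 0.051, adjusted p = 0.608). Spry1 had 61, 71 and 96 counts, below the 127 to 141 of the TGF-β1 libraries, with a log2 difference of -0.74 (-1.26 to -0.21) that did not pass (adjusted p = 0.228). None of these intervals except that of Spry1 reached 0.5 on the log2 scale in either direction.

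With G-MDSC sup no tested feedback gene passed either, and Spry1 did in the fit that kept low genes. Against the same TGF-β1 libraries, edgeR called 0 of the 9 genes, beside 5.56% of all genes, and DESeq2 and limma also called 0, beside 8.27% and 5.61 to 5.62%. At an unadjusted p under 0.05 there were 6 of 9, beside 17.2% of all genes. FPKM ranges were separate for 3 of 9, beside 22.7% of all genes. The median log2 fold change was -0.16, beside -0.014 over all genes. Both supernatant comparisons use the same 3 TGF-β1 libraries, so their values are not independent of each other. In the G-MDSC sup libraries the kidney list summed to 47.9 to 61.8 FPKM and the myeloid list to 5.62 to 9.0 FPKM.

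Dusp4 was at 23.7, 21.9 and 25.1 FPKM with G-MDSC sup, below each TGF-β1 library and across the control range, with a log2 difference of -0.27 (-0.46 to -0.080, adjusted p = 0.113). Etv4 was at 21.1, 20.6 and 22.3 FPKM, also below each TGF-β1 library (-0.18, -0.30 to -0.054, adjusted p = 0.108). Spred2 was at 20.1, 19.4 and 19.2 FPKM (-0.16, -0.27 to -0.058), with an adjusted p of 0.0832 that became 0.0369 without TGF-β1 replicate 3. Dusp1 was at 13.7, 14.9 and 15.7 FPKM, the lowest of the 4 groups by mean (-0.18, -0.33 to -0.031, adjusted p = 0.186).

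Spry4 was at 1.61, 1.73 and 1.77 FPKM, below the TGF-β1 libraries (-0.17, -0.33 to -0.0094, adjusted p = 0.255). Dusp5 was at 45.3, 47.1 and 44.0 FPKM (-0.12, -0.22 to -0.024, adjusted p = 0.167). Dusp6 was at 26.0, 25.3 and 24.1 FPKM, inside or at the edge of the TGF-β1 range (-0.021, -0.16 to 0.12, adjusted p = 0.926). Like Dusp6, Spry2 and Spred1 lay close to their TGF-β1 levels, Spry2 at 25.2, 25.5 and 24.2 FPKM (-0.022, -0.11 to 0.070, adjusted p = 0.87) and Spred1 at 12.6, 12.9 and 13.0 FPKM (-0.070, -0.18 to 0.043, adjusted p = 0.571).

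Spry1 was the exception under G-MDSC sup. It had 73, 53 and 53 counts (0.266, 0.204 and 0.200 FPKM), all below the 127 to 141 counts with TGF-β1 and close to the 54 to 76 of the control libraries. In the fit that kept low genes the log2 difference was -1.20 (95% interval -1.73 to -0.67, adjusted p = 0.0229), 0.436 of the TGF-β1 level. The call rested on all 3 TGF-β1 libraries and on G-MDSC sup replicates 2 and 3: without any single one of them the adjusted p was 0.062 to 0.0963, while the log2 difference stayed between -1.24 and -1.12. With DESeq2 it was 0.000392.

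The supernatants were then compared directly, both with TGF-β1. edgeR called 0 of 9 genes, beside 0.125% of all genes, and DESeq2 and limma also called 0, beside 1.01% and 0.108 to 0.325%. Only Dusp6 had an unadjusted p under 0.05 (1 of 9, beside 6.33% of all genes). Its 3 M-MDSC sup libraries, at 20.8 to 23.3 FPKM, were all below its 3 G-MDSC sup libraries, at 24.1 to 26.0 FPKM, and the log2 difference was -0.21 (-0.35 to -0.064, unadjusted p = 0.00896 and adjusted p = 0.508 by edgeR). FPKM ranges were separate for 2 of 9 genes, Dusp6 and Spry2, beside 12% of all genes. Spry2 was higher with M-MDSC sup by 0.090 (-0.0020 to 0.18, adjusted p = 0.8).

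For the other genes the 95% intervals describe the difference between these libraries, whose spread may be technical, and do not bound a difference between further cultures or supernatants. Dusp1 was 0.15 higher with M-MDSC sup on the log2 scale (-0.0011 to 0.30), Dusp4 0.073 (-0.12 to 0.26), Dusp5 0.029 (-0.067 to 0.13), Spred1 0.0082 (-0.10 to 0.12) and Etv4 0.021 (-0.10 to 0.14). Spry4 stood at -0.098 (-0.26 to 0.062) and Spred2 at -0.020 (-0.13 to 0.086). The interval of Spry1 was far wider, with a log2 difference of 0.46 (-0.069 to 0.99, adjusted p = 0.809). For these genes the adjusted p-values lay between 0.792 and 0.996, which does not show that the supernatants acted alike.

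The supernatant groups were also compared with control MSCs, in comparisons that share the control libraries. With M-MDSC sup, 5 of 9 genes were called, beside 35.2% of all genes. Dusp5 was higher by 0.92, Etv4 by 0.19 and Spred2 by 0.18 on the log2 scale, where 16.4% of all genes were called higher, and Dusp1 and Spry4 were lower, both at -0.69, where 18.9% were called lower. None of them passed the study's fold rule, which 6.98% of all genes passed. Dusp6 at 0.15 (adjusted p = 0.0901), Dusp4 at 0.16 (adjusted p = 0.175) and Spry2 at -0.11 (adjusted p = 0.0539) did not pass, nor did Spred1 at -0.028 (adjusted p = 0.719). Spry2 passed at a minimum of 5 FPKM (adjusted p = 0.036) and in limma (adjusted p = 0.0132 and 0.0139). With M-MDSC sup replicate 2 left out, 3 of 9 genes passed, beside 29.9% of all genes, since Spred2 (adjusted p = 0.0536) and Etv4 (adjusted p = 0.0783) no longer did. Etv4 also failed without control replicate 1 (adjusted p = 0.0711) or 3 (adjusted p = 0.0738).

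With G-MDSC sup, 7 of 9 genes were called, beside 34.8% of all genes. Dusp5 was higher by 0.89, Dusp6 by 0.36, Spred2 by 0.20 and Etv4 by 0.17, where 16.4% of all genes were called higher. Dusp1 at -0.84, Spry4 at -0.59 and Spry2 at -0.20 were lower, where 18.4% were called lower. None passed the study's fold rule, which 6.8% of all genes passed. Dusp4 at 0.089 (adjusted p = 0.472) and Spred1 at -0.036 (adjusted p = 0.643) did not pass. Etv4 passed by little (adjusted p = 0.0329) and failed, at 0.0639 to 0.115, without control replicate 1 or 3 or G-MDSC sup replicate 1 or 3. Spry1 did not differ from control MSCs beyond its spread in the fit that kept low genes, at 0.36 with M-MDSC sup (-0.17 to 0.89, adjusted p = 0.408) and -0.10 with G-MDSC sup (-0.63 to 0.43, adjusted p = 0.902).

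The other genes of the pathway were read from lists of its parts, of which genes under the FPKM minimum were not tested. Their counts with TGF-β1 stand beside 34% of all genes called, 16.1% higher and 17.9% lower. They include genes with a mean under 1 FPKM, namely Dusp2, Fosb, Areg and Pdgfb in control libraries and Fos and Igf1 with TGF-β1. These genes may have met the FPKM minimum mainly through the groups where they were higher, so that meeting it and differing are linked. A further 6 dual-specificity phosphatases were tested, and with TGF-β1 3 rose and 1 fell. Dusp2, a nuclear phosphatase first known from T cells, rose from 0.488 to 1.05 FPKM (log2 fold change 1.17), Dusp8, which acts on JNK and p38, from 2.89 to 4.62 FPKM (0.73), and Dusp9 from 11.9 to 16.1 FPKM (0.50). Dusp7, a cytoplasmic ERK phosphatase, fell from 4.88 to 3.56 FPKM (-0.40). Spred3 fell from 3.45 to 2.51 FPKM (-0.40). Of 5 other tested inhibitors, 1 rose and 2 fell: Errfi1, an inhibitor of the EGF receptor, fell from 99.6 to 42.0 FPKM (-1.19) and Lrig1, another inhibitor of that receptor family, by 0.28, while the Ras GTPase-activating gene Rasa1 rose by 0.40. Etv5, the tested PEA3 relative of Etv4, rose by 0.35, from 7.87 to 9.63 FPKM.

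Further ERK target genes also went both ways with TGF-β1, 6 higher and 5 lower of 14 tested (78.6% called, beside 34% of all genes). The transcription factor genes Egr2 (2.05 to 8.47 FPKM, 2.10), Junb (40.2 to 110.4 FPKM, 1.52) and Fosb (0.830 to 2.12 FPKM, 1.41) rose, and Fos fell (3.98 to 0.887 FPKM, -2.09). In the core of the cascade 4 of 16 tested genes rose and 2 fell, a share of 37.5% that was near that of all genes. Map2k1, which encodes MEK1, rose by 0.41, and Ksr1, a scaffold of the cascade, fell from 5.10 to 1.85 FPKM (-1.40) and Mapk3, which encodes ERK1, by 0.56. All 6 tested receptors were called, 2 higher (Fgfr1 at 0.68 and Pdgfrb at 0.52) and 4 lower, the furthest being Pdgfra at -1.44 and Met at -1.02. Of 9 tested ligands 3 rose and 4 fell, among them Pdgfa at 1.70, Hbegf at 1.41, Fgf7 at -1.85 and Fgf10 at -1.34. The adjusted p of every gene named here was at most 0.00936 by edgeR.

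Over all these lists, 58 genes were tested. Against TGF-β1 alone, 6 were called with M-MDSC sup (10.3%, beside 4.78% of all genes) and 9 with G-MDSC sup (15.5%, beside 5.56% of all genes), none of them another feedback gene. M-MDSC sup lowered 2 of 14 tested targets, Egr2 from 8.47 to 5.02 FPKM (-0.78, adjusted p = 0.000948) and Egr3 from 5.87 to 4.45 FPKM (-0.42, adjusted p = 0.0324). It raised 1 of 16 core genes, Map2k1, from 31.8 to 43.9 FPKM (0.44, adjusted p = 0.000216), lowered the receptor Pdgfrb (-0.24), raised Fgf7 (0.40) and lowered Hbegf (-0.31). G-MDSC sup also lowered Egr2, to 5.24 FPKM (-0.72, adjusted p = 0.0016), and raised Map2k1, to 41.9 FPKM (0.37, adjusted p = 0.000809). It raised the targets Ier3 (177 to 249 FPKM, 0.47) and Fosl1 (26.7 to 32.6 FPKM, 0.26), the receptor Pdgfra (0.35) and the ligands Fgf7 (0.92) and Ereg (0.44), and lowered Pdgfrb (-0.41) and Hbegf (-0.37). Between the supernatants, edgeR called 0 genes of any of these lists, beside 0.125% of all genes, and 6 of 58 had an unadjusted p under 0.05, beside 6.33% of all genes. Of these, Fgf7 was closest to the threshold (18.4 FPKM with G-MDSC sup against 12.8 with M-MDSC sup, adjusted p = 0.0579, named after its values were seen).

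**Figure D4:**
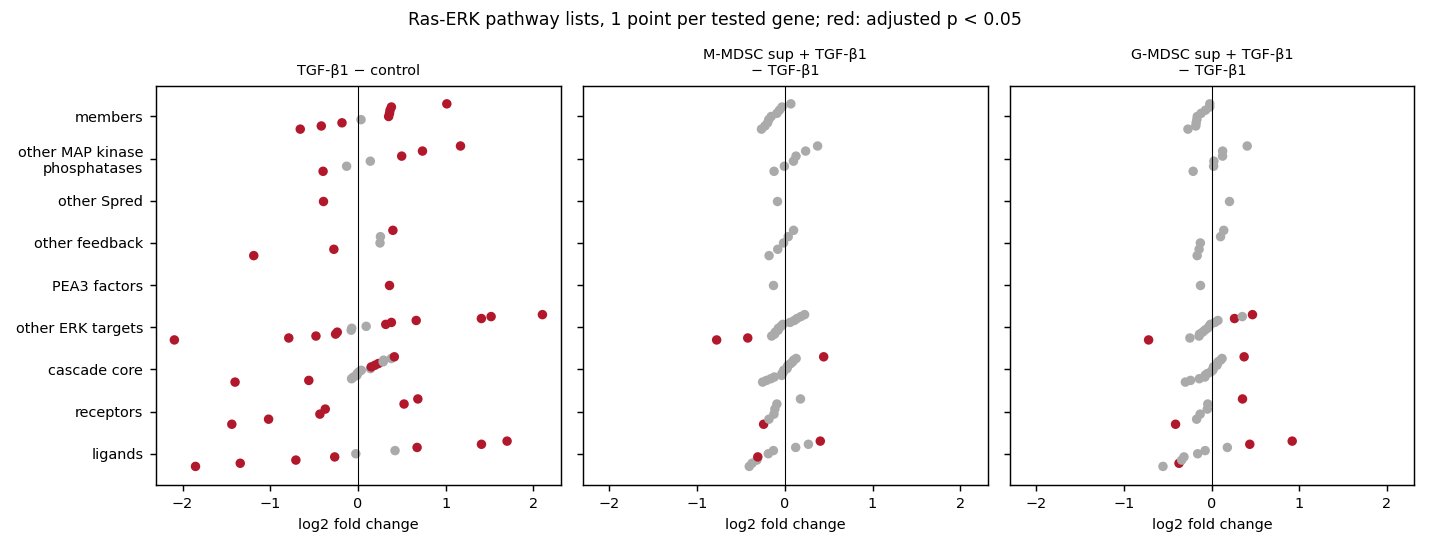
Log2 fold change of each tested gene of the Ras-ERK lists (1 point per gene) in 3 comparisons, with red for an adjusted p under 0.05. With TGF-β1 against control, red points lie on both sides of 0 among the feedback genes, the targets, the core, the receptors and the ligands, from -2.09 for Fos to 2.10 for Egr2; with either supernatant against TGF-β1 no tested feedback gene is red.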

How the data were processed

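Polyadenylated RNA of 12 MSC libraries was sequenced as paired ends after a dUTP strand-marking preparation. The authors checked reads with fastp, and the submitters' processing notes name cutadapt 1.9, HISAT2 2.0.4 and StringTie 1.3.4d, with the genome GRCm38 and merging by gffcompare. The deposited table holds raw counts per gene and, as calculated by the authors, FPKM, where 0.0001 stands for a count of 0. The counting tool and annotation release are not given in the sources used here. Columns of the authors' comparisons (fold changes and p-values) were not used.

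Of 55401 genes, the 12016 that reached an FPKM of 1 in 3 or more libraries were tested. TMM scaling gave factors of 0.978 to 1.03. One model of all 12 libraries was fitted in R 4.3.3 with edgeR 4.0.16, contrasts were tested by its quasi-likelihood F test (two-sided), and Benjamini-Hochberg adjustment covered every tested gene. Log2 fold changes come from this fit, and intervals are 95%. Spry1 was fitted without the minimum, and its alternatives were chosen after seeing the data. Within groups, the variance between libraries was on average 61.9 to 85.3 times that of counting over tested genes. This is a mean over genes of all levels and does not give the ratio for a single gene. Depth may also limit the precision of low genes such as Spry1. Alternatives were DESeq2 1.42.0, limma 3.58.1 on log2(FPKM + 1) and log2(FPKM + 0.1), other scaling and filters, counts divided by 4, the groups compared alone, a replicate block and leaving out each library. The fit was tested on simulated data for TGF-β1 against control. It called 25 of 50 genes with a true log2 change of -0.5 and 21 of 50 with 0.5. At -1 and 1 it called 37 and 46 of 50, and it called 11 of 11816 unchanged genes. Changes of 0.5 were thus often missed, so a gene that was not called may still differ. The 10 genes and all lists were chosen with earlier results of these data known, and list genes were named by a rule: those called, at most 4 per list and comparison, by size of change, with 1 gene of the core list not reported here. Promoter windows came from RefSeq, GRCm38.p6. Figures were drawn with matplotlib 3.10.9.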

Additional observations from a re-analysis of the deposited data

How the results depend on the processing

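The largest changes in the counts of called genes were as follows, and the cause was not tested except where the rule itself asks for a larger fold. Under the study's rule of a fold above 2 or below 0.5, 1 gene passed with TGF-β1 against control in place of 8, and 0 passed against control with M-MDSC sup in place of 5 and with G-MDSC sup in place of 7. Against TGF-β1, DESeq2 called 1 gene with M-MDSC sup (Spred2) and the fit without a minimum called 1 with G-MDSC sup (Spry1), where 0 had been called, beside 6.94% and 2.58% of all genes under those settings. Against control, TGF-β1 gave 9 genes without a minimum, where Spry1 was added (14.6% of all genes), and 7 at a minimum of 5 FPKM (38.1%), where Spry4 was not tested and no call was lost, and Spry2 was gained with M-MDSC sup in limma and at 5 FPKM. With each library left out in turn, the counts were 8 to 8 with TGF-β1 against control (29.2 to 32% of all genes), 0 to 1 with M-MDSC sup (2.95 to 3.79%) and with G-MDSC sup (3.79 to 4.81%) against TGF-β1, 0 to 0 between the supernatants (0.0749 to 0.391%), and against control 3 to 5 with M-MDSC sup (29.9 to 32.3%) and 6 to 7 with G-MDSC sup (29.5 to 32.3%). Against control, Etv4 passed no longer with either supernatant when only the groups compared were fitted (adjusted p 0.0562 with M-MDSC sup and 0.0797 with G-MDSC sup by edgeR), and with G-MDSC sup also in limma (0.0606 and 0.0614).

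Signs turned 18 times, at values near 0. Spred1 with TGF-β1 against control was at -0.024 and -0.025 in limma, and ranged from -0.0096 without TGF-β1 replicate 1 to 0.076 with libraries left out in turn. With M-MDSC sup against TGF-β1, Dusp1 ranged from -0.076 to 0.016, the latter without TGF-β1 replicate 3. With G-MDSC sup against TGF-β1, Dusp6 was at 0.0058 and 0.0060 in limma and at 0.0067, 0.018 and 0.0070 without TGF-β1 replicate 2, TGF-β1 replicate 3 and G-MDSC sup replicate 3 (lowest -0.069 with other libraries left out), and Spry2 at 0.0049 and 0.0051 in limma and from -0.044 to 0.030 with libraries left out, the latter without TGF-β1 replicate 3. Between the supernatants, Spred1 was at -0.0033 and -0.0076 without G-MDSC sup replicate 1 and M-MDSC sup replicate 2 (highest 0.020), Spred2 at 0.0016 without G-MDSC sup replicate 1 (lowest -0.045), and Etv4 at -0.0044 and -0.014 without G-MDSC sup replicate 2 and M-MDSC sup replicate 2 (highest 0.055). Spry1 with G-MDSC sup against control ranged from -0.24 to 0.059, the latter without control replicate 1.

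Of 858 values, 816 kept their direction and side of the threshold. No pairing by replicate number was seen: residuals of same-numbered libraries had a mean correlation of -0.0038 over 18 pairs (-0.156 to 0.0778). The mean over 36 other pairs was 0.0020. Residuals cancel within each group, so this second mean nearly follows from the first and is no separate comparison. These values cannot show whether the samples were paired by design. With a replicate block, 8 genes were called with TGF-β1 against control (32.7% of all genes), 0 with M-MDSC sup (3.84%) and G-MDSC sup (4.74%) against TGF-β1, 0 between the supernatants (0.0666%), and against control 5 with M-MDSC sup (33.3%) and 7 with G-MDSC sup (33.2%), and the block changed no call. Spry1, at 0.199 to 0.539 FPKM, had the lowest levels and the widest intervals, and with counts divided by 4 its adjusted p was 0.00732 with TGF-β1 against control and 0.0151 with G-MDSC sup against TGF-β1, both by edgeR.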

Other observations

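Genes whose levels over the 12 libraries most resembled those of Dusp6 were, by Pearson's r of log2 CPM among all tested genes, Selenoi (0.927), Pwp1 (0.926), Rad9a (0.920), Eif5a2 (0.916) and Bcl7a (0.907). The 12 libraries fall into 4 treatment groups, so these values largely describe group means, and they are given with no test. Selenoi, a phospholipid synthesis enzyme, was at 1.07 FPKM in control libraries, 2.80 with TGF-β1, 1.45 with M-MDSC sup and 2.49 with G-MDSC sup on average. Its log2 fold changes were 1.45 with TGF-β1 against control, -0.97 with M-MDSC sup and -0.19 with G-MDSC sup against TGF-β1, and -0.77 between the supernatants, beside 0.38, -0.23, -0.021 and -0.21 for Dusp6. Selenoi was picked for its likeness to Dusp6 in these same libraries, so changes of like sign follow from the choice.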
